A study of Homo sapiens with 6 samples.

Results

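Transcripts of the mitochondrial ribosomal proteins were measured in KOPTK1 cells, a human cell line established from T-cell acute lymphoblastic leukaemia (T-ALL), after 48 h with 1 µM PD0332991 (3 arrays) or with vehicle (3 arrays). PD0332991 (palbociclib) is an inhibitor of CDK4 and CDK6, kinases that drive cells out of the G1 phase. Both groups were grown alike in RPMI-1640 with fetal calf serum and antibiotics, and the design describes each group as a biological triplicate of this single line. Total RNA was hybridised to Affymetrix expression arrays. Members were all genes whose probe sets carried a single annotated symbol of MRPL or MRPS followed by a number, and the brightest probe set over the 6 arrays stood for its gene. This gave 75 genes of the 19777 measured, 48 named for the large subunit (MRPL) and 27 for the small subunit (MRPS), with 140 probe sets among them. MRPS24, MRPL53 and MRPS36 had no probe set that met the rule and were not analysed here.

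Mitochondria carry their own ribosome, which translates the few membrane proteins of the respiratory chain and ATP synthase that are encoded in mitochondrial DNA. Its RNAs come from the mitochondrial genome, but every one of its proteins is encoded in the nucleus, made in the cytosol and imported. Some of these proteins descend from bacterial ribosomal proteins, whereas others have no bacterial counterpart and are specific to mitochondria. Dividing cells need a supply of mitochondrial ribosomes, since organelles are shared out at each division.

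Transcripts of the mitochondrial ribosome were on balance lower in PD0332991-treated cells, by small amounts. Of the 75 genes, 28 fell (37.3%), 1 rose (1.33%) and 46 did not pass the test, which was limma on log2(intensity + 16), with p-values adjusted by Benjamini and Hochberg's method across the whole table and called under 0.05. Among all 19777 genes, 13.6% fell and 15.6% rose. All 75 members were brighter than the median gene, and among the 9888 genes above that median 23.5% fell and 25.7% rose in the same fit. The members' median log2 fold change of PD0332991 over vehicle was -0.19, against 0.01 for all genes. It lay below 0 for 57 of the 75 members (76.0%), and for 48.1% of all genes. The members' values ran from -0.71 to 0.46, with the middle portion between -0.30 and -0.01.

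The decreases were graded and modest. Their median was -0.34 among the 28 genes that fell, and the largest was 1.63-fold. At least a 1.5-fold decrease was seen in 5 members (6.67%), close to the 5.79% of all genes with a decrease of that size. The 3 PD0332991 arrays lay wholly below the 3 vehicle arrays for 42 members, where 20.0% of all genes and 31.9% of the brighter genes did so. They lay wholly above for 6 members, where 23.0% of all genes and 35.9% of the brighter genes did so. These 42 comprised all 28 genes that fell and 14 that did not pass. Of all members, 24 had a log2 fold change within 0.10 of 0. The median standard deviation within a group was 0.067 on the log2 scale for members and 0.12 for all genes.

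**Figure D1:**
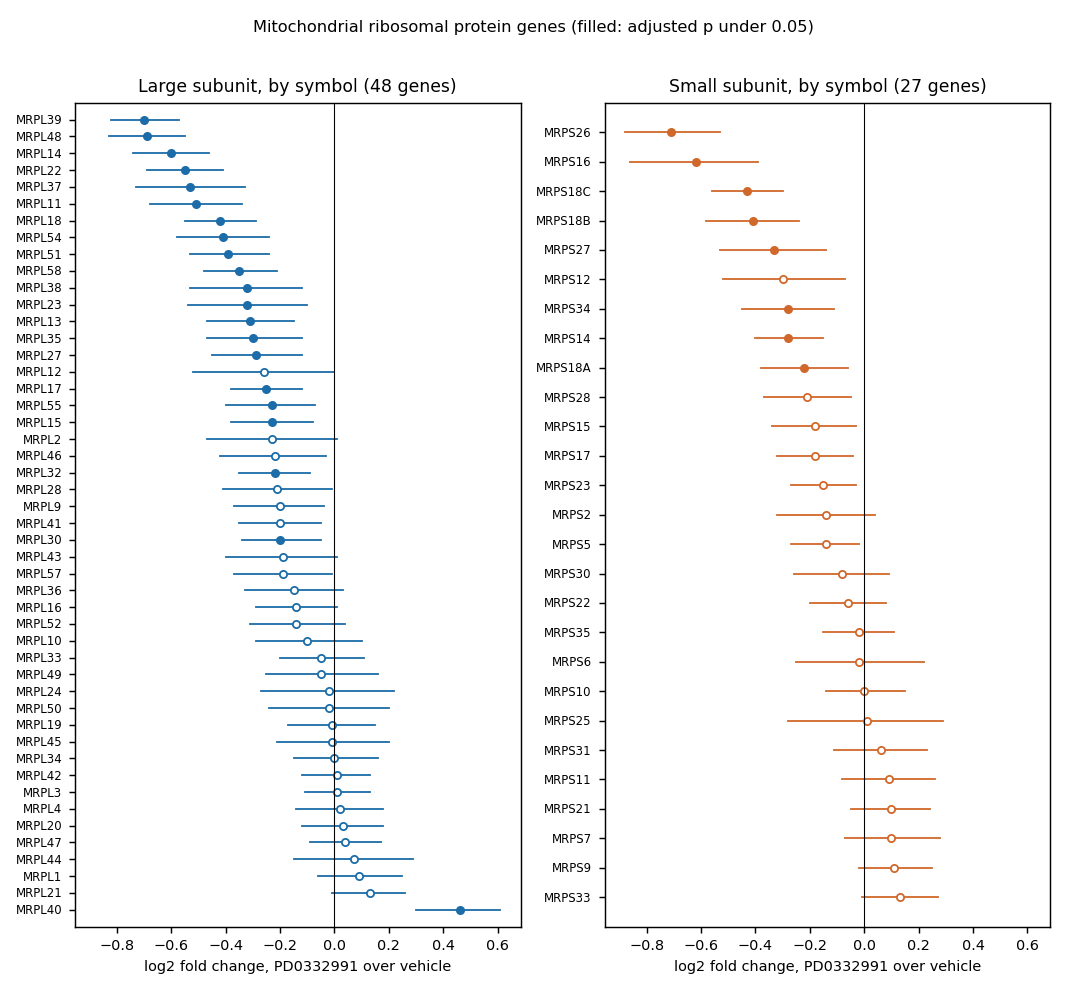
Log2 fold change of each mitochondrial ribosomal protein gene, PD0332991 over vehicle (horizontal axis), for the 48 large-subunit genes (left) and the 27 small-subunit genes (right). Points are limma estimates with their 95% confidence intervals, unadjusted, and filled points passed the threshold; in both subunits the values grade from about -0.70 to slightly above 0, with MRPL40 alone at 0.46.

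In the large subunit, 20 of 48 genes fell (41.7%), 1 rose and 27 did not pass. The median log2 fold change over the subunit was -0.20. Among all genes 13.6% fell and 15.6% rose, and among the brighter genes 23.5% and 25.7%. MRPL39, a mitochondria-specific protein, had intensities of 1047, 1084 and 1065 on the PD0332991 arrays, against 1756, 1743 and 1709 on the vehicle arrays. The groups stood far apart, and the log2 fold change was -0.70 ± 0.05 (SE, n = 3 each, adjusted p = 0.00025). That probe set carries the suffix _s_at, which marks probes shared by several transcripts. The gene's other, dimmer probe set read 108, 82.2 and 114 with PD0332991 and 99.3, 122 and 140 with vehicle, groups that overlapped (log2 fold change -0.22, adjusted p = 0.391 when such shared probe sets were left out). MRPL48, also mitochondria-specific and measured by a single unshared probe set, had 573, 596 and 576 on the PD0332991 arrays, against 980, 954 and 906 on the vehicle arrays. All treated values were well under the lowest vehicle value (log2 fold change -0.69 ± 0.06, adjusted p = 0.0004).

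Proteins of the bacterial core of the large subunit fell as well. MRPL14, the protein to which the assembly factor MALSU1 binds, had 778, 809 and 764 on the PD0332991 arrays, against 1236, 1162 and 1188 on the vehicle arrays (log2 fold change -0.60, adjusted p = 0.00064). MRPL22, which helps to line the tunnel through which the new protein leaves, had 643, 670 and 686 with PD0332991 and 1023, 978 and 955 with vehicle (log2 fold change -0.55, adjusted p = 0.00099). MRPL11, at the base of the flexible stalk that receives translation factors, had 870, 1015 and 962 with PD0332991 and 1361, 1342 and 1365 with vehicle (log2 fold change -0.51, adjusted p = 0.00305). In each of these genes the groups did not overlap, although MRPL11 varied more among the treated arrays than among the vehicle arrays. MRPL14 and MRPL11 had only a shared probe set each, so neither could be tested with such probe sets left out. MRPL18, a relative of the bacterial protein that holds the 5S ribosomal RNA, had 1002, 975 and 971 with PD0332991 and 1367, 1303 and 1294 with vehicle (log2 fold change -0.42, adjusted p = 0.0021).

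Mitochondria-specific MRPL37 had 769, 934 and 857 on the PD0332991 arrays, against 1209, 1250 and 1256 on the vehicle arrays (log2 fold change -0.53, adjusted p = 0.0044). MRPL54 had 423, 468 and 407 with PD0332991 and 598, 576 and 568 with vehicle (log2 fold change -0.41, adjusted p = 0.00642). Both genes had the groups apart. The other large-subunit genes that fell were MRPL51 (-0.39), MRPL58 (-0.35), MRPL38, MRPL23, MRPL13, MRPL35, MRPL27, MRPL17, MRPL55, MRPL15, MRPL32 and MRPL30 (-0.20), with adjusted p up to 0.0499. MRPL58 is a peptidyl-tRNA hydrolase that was built into the mitochondrial ribosome, and it kept that enzyme activity.

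Some large-subunit genes with related places in the ribosome passed and others did not. Around the tunnel exit MRPL22 and MRPL23 fell, while MRPL24 was at -0.02 (adjusted p = 0.902) and MRPL45, which anchors the ribosome at the inner membrane, was at -0.01 (adjusted p = 0.967). MRPL12, which forms the flexible stalk, had 624, 796 and 797 with PD0332991, against 878, 860 and 909 with vehicle. Its groups were apart, but the first treated array lay far under the other two and the difference did not pass (log2 fold change -0.26 ± 0.11, adjusted p = 0.13). MRPL3, a protein of the core near the catalytic centre, had 4060, 4131 and 4045 with PD0332991 and 4041, 4085 and 4021 with vehicle. Those groups overlapped (log2 fold change 0.01, 95% confidence interval -0.11 to 0.13, adjusted p = 0.907).

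In the small subunit, 8 of 27 genes fell (29.6%), 0 rose and 19 did not pass. That share lay nearer to the 23.5% of the brighter genes that fell than to the 13.6% of all genes. The median log2 fold change over the subunit was -0.14. MRPS26, mitochondria-specific, had 624, 720 and 664 on the PD0332991 arrays, against 1103, 1054 and 1145 on the vehicle arrays. It was the largest decrease among all members (log2 fold change -0.71 ± 0.07, adjusted p = 0.00095). Both probe sets of MRPS26 are of the shared kind, so the gene could not be tested with such probe sets left out. The other one, at a mean intensity of 20.8, did not pass. MRPS16, of bacterial descent, had 367, 460 and 451 with PD0332991 and 683, 652 and 652 with vehicle (log2 fold change -0.62 ± 0.10, adjusted p = 0.00444). Its other probe set, which is not of the shared kind, read 271, 354 and 304 with PD0332991 and 371, 345 and 375 with vehicle, and overlapped between groups (-0.23, adjusted p = 0.183 when shared probe sets were left out). MRPS27, a pentatricopeptide repeat protein, fell by 0.33 on the log2 scale, and MRPS34 and MRPS14 each fell by 0.28. The MRPS14 value is from a shared probe set. The gene's other, unshared probe set read 291, 291 and 285 with PD0332991 and 252, 238 and 251 with vehicle. Those groups were apart on the higher side, and the difference did not pass (0.21, adjusted p = 0.0552 over all probe sets). The fit with shared probe sets left out called 3 members higher, MRPL40 among them. Its value for MRPS14 is not given here.

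MRPS12, a protein of the decoding centre, had 735, 895 and 852 with PD0332991, against 1011, 957 and 1082 with vehicle. The groups were apart but the gene did not pass (log2 fold change -0.30, adjusted p = 0.0607). It passed with the same sign in 3 alternative fits, at adjusted p of 0.0129 among the brighter genes alone, 0.0173 with an intensity trend in the variance and 0.029 with a pseudocount of 64. MRPS35 was flat, with 1822, 1850 and 1835 on the PD0332991 arrays and 1842, 1823 and 1924 on the vehicle arrays (log2 fold change -0.02, adjusted p = 0.821). MRPS7 (0.10), MRPS9 (0.11) and MRPS33 (0.13) had small positive values that did not pass.

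MRPS18A, MRPS18B and MRPS18C descend from the same bacterial protein, and in mitochondria each ribosome holds all of them at separate sites, MRPS18A in the large subunit despite its symbol. All 3 fell. MRPS18C had 947, 949 and 954 with PD0332991, against 1341, 1261 and 1258 with vehicle (log2 fold change -0.43, adjusted p = 0.00201, but -0.21 and adjusted p = 0.235 when averaged with its dim probe sets). MRPS18B had 1244, 1394 and 1266 with PD0332991 and 1701, 1687 and 1816 with vehicle (-0.41, adjusted p = 0.00623). The groups were apart in both. All probe sets of MRPS18C are of the shared kind, so it could not be tested with such probe sets left out. MRPS18A had 254, 283 and 261 with PD0332991 and 308, 304 and 325 with vehicle (-0.22), at an adjusted p of 0.0495 that was above the threshold in 11 of 18 alternative settings. Its second probe set of nearly the same brightness had 209, 257 and 228 with PD0332991 and 331, 349 and 336 with vehicle (-0.53, adjusted p = 0.00844 over all probe sets). MRPS30, also part of the large subunit in the assembled ribosome, had 743, 868 and 808 with PD0332991 and 839, 873 and 845 with vehicle, groups that overlapped (-0.08, adjusted p = 0.477).

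MRPL40 was the single member that rose. This mitochondria-specific large-subunit gene, which lies in the chromosome 22 region lost in DiGeorge syndrome, had 725, 819 and 756 on the PD0332991 arrays, against 561, 546 and 556 on the vehicle arrays. Every treated value was above every vehicle value, and the log2 fold change was 0.46 ± 0.06 (SE, n = 3 each, 1.37-fold, adjusted p = 0.00314). MRPL1, MRPL21, MRPS9, MRPS21 and MRPS33 also had groups apart on the higher side, with log2 fold changes of 0.09 to 0.13 that did not pass.

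**Figure D2:**
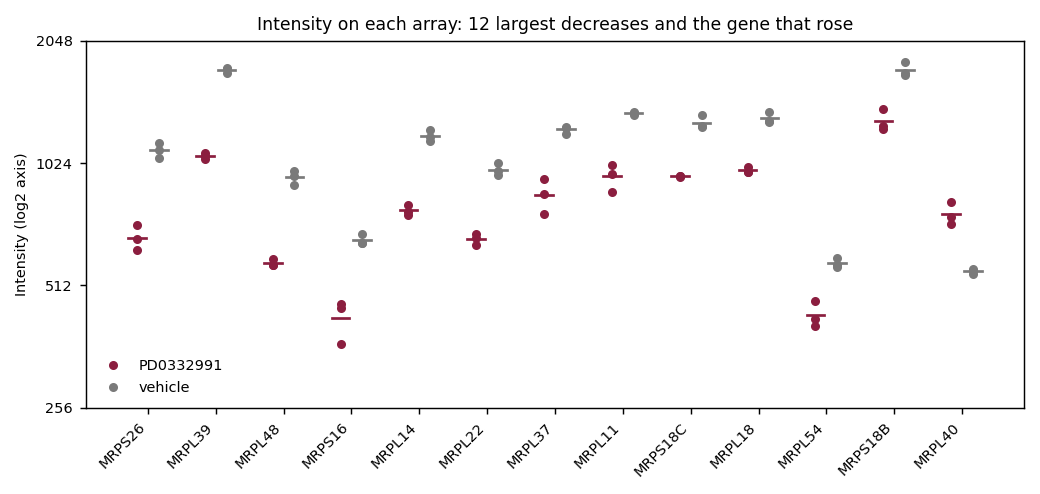
Intensity on each array (vertical axis, log2 scale) for the 12 genes with the largest decreases and for MRPL40, with PD0332991 arrays in dark red on the left of each pair and vehicle arrays in grey. Points are arrays (3 per group) and bars are group means; the groups do not overlap in any of these genes, and MRPL40 alone is higher with PD0332991.

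Both subunits were lower on every treated array. Large-subunit members averaged -0.26, -0.14 and -0.19 log2 units from the vehicle mean on PD0332991 arrays 1, 2 and 3, and small-subunit members averaged -0.22, -0.10 and -0.15. On the vehicle arrays both averages stayed between -0.01 and 0.02. The large-subunit average was the lower one on all 3 treated arrays. That gap was not tested, because the members were chosen with earlier results known. The order of the subunit medians turned round when shared and cross-hybridising probe sets were left out, with -0.09 for the large and -0.11 for the small subunit. Assigning MRPS18A and MRPS30 to the large subunit, where they sit in the structure, kept the medians at -0.20 and -0.14. It gave 21 of 50 large-subunit (42.0%) and 7 of 25 small-subunit genes (28.0%) that fell. By descent, of 28 mitochondria-specific members 10 fell (35.7%) and 1 rose (median -0.17). Of 47 members with a bacterial counterpart 18 fell (38.3%) and 0 rose (median -0.20). Among the brighter genes 23.5% fell and 25.7% rose.

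The treated arrays kept a common order. PD0332991 replicate 1 gave the lowest treated value in 57 of the 75 members (76.0%), against 35.2% of all genes, and PD0332991 replicate 2 the highest in 56 (74.7%), against 37.5% of all genes. Without PD0332991 replicate 1, 18 members fell, and the median over all 75 was -0.14. Without PD0332991 replicate 3, 17 fell, without vehicle replicate 1, 15, and without vehicle replicate 2, 16. The share of all genes that fell was also smaller in these fits, at 11.9% without PD0332991 replicate 1, 10.6% without PD0332991 replicate 3 and 10.5% without either of the vehicle replicates. MRPL40 was called in every one of the 6 fits that left out an array.

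**Figure D3:**
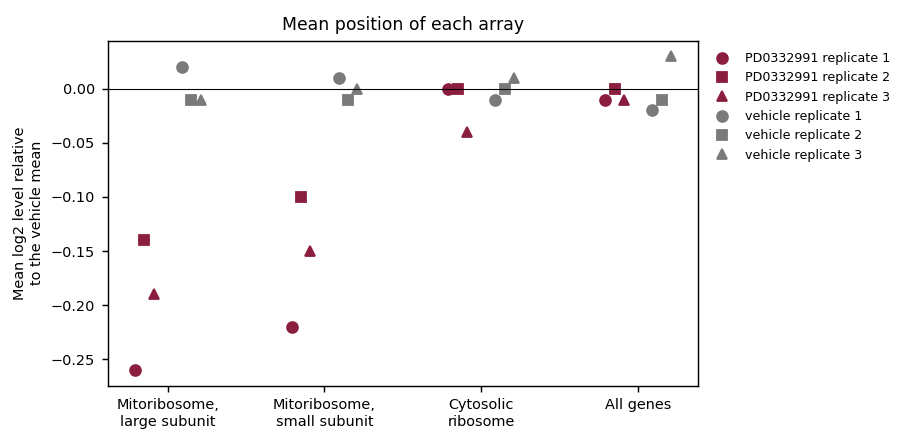
Mean log2 level of each array relative to the vehicle mean (vertical axis) for large-subunit members, small-subunit members, 60 cytosolic ribosomal protein genes and all genes. Each symbol is an array, PD0332991 in dark red on the left and vehicle in grey on the right; for both mitochondrial subunits all treated arrays lie under all vehicle arrays, with replicate 1 lowest at -0.26 and -0.22.

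The cytosolic ribosome did not show this shift. Of 60 cytosolic ribosomal protein genes and relatives, 2 fell and 1 rose, with a median of 0.02, and their averages were 0.00, 0.00 and -0.04 on the PD0332991 arrays. The 3 that changed were paralogues with names derived from ribosomal proteins, RPL39L (-1.74, adjusted p = 3.1e-05), RPS27L (-0.42, adjusted p = 0.00642) and RPL7L1 (0.37, adjusted p = 0.00432). The difference between the ribosomes was not tested.

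Several members had more than 1 probe set. A single probe set measured 38 members, and 37 had several, up to 5. In a fit over all probe sets, 29 of the members' 140 fell, where 10.2% of all probe sets fell, and 3 rose, where 10.7% of all rose. Of the 65 probe sets not used for their gene, 8 fell, 2 rose and 13 had a mean intensity under 50. The 2 that rose belonged to MRPL42 and MRPL30. MRPL42 had 1095, 1062 and 997 with PD0332991 and 802, 788 and 687 with vehicle on one probe set (log2 fold change 0.46, adjusted p = 0.0121), while its brightest was flat (0.01). MRPL30 had 263, 289 and 268 with PD0332991 and 210, 202 and 237 with vehicle (0.32, adjusted p = 0.0426), opposite in sign to its brightest probe set. MRPL57 and MRPS15, whose brightest probe sets did not pass (-0.19 and -0.18), each had 2 other probe sets that fell, between -0.27 and -0.40. Of the probe sets used, 40 ended in _s_at and 4 in _x_at, a suffix for probes that may hybridise to other transcripts. Among the 31 members measured by other probe sets 12 fell and 1 rose (median -0.14), and among those 44, 16 fell and 0 rose (median -0.20).

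Ribosomal proteins of the mitochondrion that carry other names were mixed. CHCHD1, in the small subunit, had 1046, 1043 and 1111 with PD0332991 and 1450, 1486 and 1430 with vehicle, and fell (log2 fold change -0.44, adjusted p = 0.00198). PTCD3, which sits at the entry site of the messenger RNA, had 2216, 2034 and 2111 with PD0332991 and 1755, 1765 and 1600 with vehicle, and rose (0.31, adjusted p = 0.0168). DAP3, a GTP-binding protein of the small subunit (0.18, adjusted p = 0.0637), and GADD45GIP1, of the large subunit (-0.16, adjusted p = 0.2), did not pass.

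The genes that build and serve the mitochondrial ribosome had medians slightly above 0, where the median was 0.01 for all genes and 0.02 for the brighter genes. Of 29 assembly and ribosomal RNA modification factors, 5 rose and 5 fell (17.2% each), with a median of 0.06. These shares were near those of all genes, of which 15.6% rose and 13.6% fell. NSUN3, a methyltransferase counted in this list although it modifies a mitochondrial tRNA, rose (0.45, adjusted p = 0.0027). So did FASTKD2, an RNA-binding factor for large-subunit assembly (0.36, adjusted p = 0.00528). NOA1, a GTPase needed for the small subunit, fell (-0.53, adjusted p = 0.00523), and so did MALSU1, the partner of MRPL14 (-0.32, adjusted p = 0.0134), and TRMT61B, a ribosomal RNA and tRNA methyltransferase (-0.35, adjusted p = 0.00745). Of 16 translation factors measured, MTFMT alone changed (6.25%), which formylates the initiator tRNA (-0.29, adjusted p = 0.0073), and the median was 0.08. Of 18 mitochondrial tRNA synthetase and amidotransferase genes, LARS2 (0.38), CARS2 (0.36) and FARS2 (0.35) rose and GATC (-0.25) fell, with a median of 0.12. Thus 16.7% of these genes rose and 5.56% fell.

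Among 13 genes of mitochondrial DNA maintenance and transcription 3 rose (23.1%) and 2 fell (15.4%), where 15.6% of all genes rose and 13.6% fell. The median was 0.07. TWNK, the replicative helicase, rose (0.38, adjusted p = 0.00347), as did TFB2M, a transcription initiation factor (0.34, adjusted p = 0.0203). MGME1, a nuclease of mitochondrial DNA, had 762, 781 and 821 with PD0332991 and 1645, 1632 and 1393 with vehicle (-0.96, adjusted p = 0.00047). TFAM, which packages mitochondrial DNA, fell by 0.28 on the log2 scale (adjusted p = 0.0152).

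Of 10 listed nuclear regulators of mitochondrial genes, 6 fell and 0 rose, with a median of -0.31. Among all genes 13.6% fell and 15.6% rose, and among the brighter genes 23.5% and 25.7%. NRF1, a transcription factor for nuclear genes of respiration, had 258, 267 and 269 with PD0332991 and 524, 515 and 544 with vehicle, groups that stood far apart (log2 fold change -0.95 ± 0.05, adjusted p = 0.0001). GABPA, the DNA-binding subunit of the GA-binding protein of the ETS family, had 1715, 1601 and 1650 with PD0332991 and 2077, 2084 and 1954 with vehicle (-0.30, adjusted p = 0.012). Its partner subunits GABPB1 (-0.33, adjusted p = 0.0114) and GABPB2 (-0.67, adjusted p = 0.00032) also fell, and so did the coactivator PPRC1 (-0.36, adjusted p = 0.00418). The coactivator PPARGC1A fell (-0.49, adjusted p = 0.0236) at intensities of 4.84 to 21.0, where signal and background cannot be separated. MYC (0.03, adjusted p = 0.749) and YY1 (-0.14, adjusted p = 0.0871) did not pass. Whether these regulators have a part in the members' values was not tested.

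**Figure D4:**
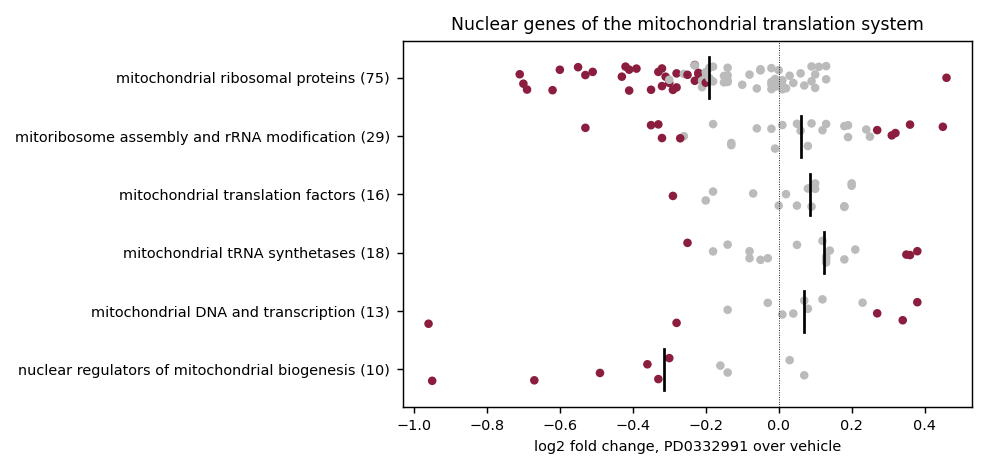
Log2 fold change, PD0332991 over vehicle (horizontal axis), of each measured gene in the mitochondrial ribosomal protein set and in 5 related lists, with the number of genes in parentheses. Dark red points passed the threshold, grey points did not, and black bars are medians; the medians of the ribosomal proteins (-0.19) and of the nuclear regulators (-0.31) lie below 0 and those of the other lists between 0.06 and 0.12.

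Promoters of the members were searched for motifs of transcription factors known to act on such genes or on the cell cycle. Sequences are those of NCBI RefSeq on GRCh38.p14, from 250 bases before to 50 bases after the annotated start, and 67 of the 75 members had one. The motifs, read on both strands, were CCGGAAG for ETS factors such as GABPA, CGCANGCG for NRF1, AAGATGGCG for YY1, CACGTG for MYC and GGCGGGAA for E2F. No matches of different motifs overlapped. The ETS motif was in 41.8% of the members' promoters, against 14.4% of those of all measured genes and 10.7% of all promoters in the table. The YY1 motif was in 17.9%, against 2.76% of measured genes and 1.85% of all promoters. The NRF1 motif was in 19.4%, against 14.7% and 10.6%. Of 37 ETS matches, 27 began within 60 bases of the start.

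Each of the 5 motifs was in a larger share of the members that fell than of the others, in small counts that were not tested. The ETS motif was in 12 of 24 promoters of members that fell, and in 16 of 43 of the others. The YY1 motif was in 5 of 24 and 7 of 43, the NRF1 motif in 6 of 24 and 7 of 43, and the MYC motif in 3 of 24 and 3 of 43. The E2F motif was in 3 members, MRPL18, MRPL51 and MRPS26, all of which fell. It was thus in 4.48% of the members' promoters, against 4.21% of those of measured genes. Among cytosolic ribosomal protein genes, which did not fall as a group, the ETS motif was in 36.5% and the YY1 motif in 7.69%. A match is a string of letters and does not show that a factor binds there.

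The 250 bases before the start are shown for the leading decreases and for MRPL40, the gene that rose, to set their motif content side by side, with motif matches in capitals. MRPS26 (chr20:3045802-3046051, + strand) holds an E2F and an ETS match, MRPL48 (chr11:73787624-73787873, + strand) an ETS match, and MRPL39 (chr21:25607482-25607731, - strand) no match to any of the 5 motifs. MRPL40 (chr22:19432295-19432544, + strand) also holds an ETS match, close to its start. The GC content of these windows is 77.2% in MRPS26, 40.0% in MRPL48, 69.6% in MRPL39 and 75.6% in MRPL40.
MRPS26: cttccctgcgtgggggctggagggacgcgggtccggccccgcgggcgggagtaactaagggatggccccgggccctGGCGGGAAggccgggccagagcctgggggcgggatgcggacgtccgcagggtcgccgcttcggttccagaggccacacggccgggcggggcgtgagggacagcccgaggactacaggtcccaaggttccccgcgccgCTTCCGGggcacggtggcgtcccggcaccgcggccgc
MRPL48: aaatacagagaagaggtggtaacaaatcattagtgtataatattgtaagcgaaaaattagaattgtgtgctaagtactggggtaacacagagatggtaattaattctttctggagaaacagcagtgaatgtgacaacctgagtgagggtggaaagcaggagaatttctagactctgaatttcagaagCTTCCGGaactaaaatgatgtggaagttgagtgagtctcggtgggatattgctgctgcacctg
MRPL39: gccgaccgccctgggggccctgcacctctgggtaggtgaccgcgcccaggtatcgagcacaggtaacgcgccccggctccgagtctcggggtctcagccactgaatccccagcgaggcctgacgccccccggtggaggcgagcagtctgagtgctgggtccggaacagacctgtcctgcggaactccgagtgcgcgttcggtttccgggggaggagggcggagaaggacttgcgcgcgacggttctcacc
MRPL40: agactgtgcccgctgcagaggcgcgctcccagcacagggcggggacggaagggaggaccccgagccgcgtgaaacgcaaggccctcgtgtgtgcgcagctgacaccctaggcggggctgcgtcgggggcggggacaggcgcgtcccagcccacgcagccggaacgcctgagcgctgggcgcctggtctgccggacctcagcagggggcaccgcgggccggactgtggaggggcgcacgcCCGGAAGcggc

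The YY1 motif lies mostly at or just after the start, with a median first base 8 bases downstream. It is shown in capitals with up to 10 bases on each side for the 5 members that hold it and fell. In MRPL22 (chr5:154941098-154941122, + strand), MRPL38 (chr17:75904860-75904888, - strand), MRPS18A (chr6:43687764-43687792, - strand) and MRPS18B (chr6:30617853-30617881, + strand) it runs in the direction of the gene, and in MRPL32 (chr7:42932143-42932171, + strand) it lies on the opposite strand.
MRPL22: gggagggcgaAAGATGGCGgcggca
MRPL38: ggccggagggAAGATGGCGgcgccctggt
MRPS18A: taggtttttgAAGATGGCGgccctcaagg
MRPS18B: ggcgtacgtcAAGATGGCGgcgtctgtat
MRPL32: acccgcgctcCGCCATCTTtacccgaaga

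Many members share a promoter region with a gene read the opposite way. Such a partner started within 1000 bases upstream of 21 of the 67 members (31.3%), against 19.7% of all measured genes with a promoter. Of 8 members that fell and had a measured partner, 4 partners fell, where 13.6% of all genes fell. The partners of the others, HELQ, PPP1R10, PTCD2 and MITD1, did not pass. NCAPD2, a condensin subunit that faces MRPL51, had a log2 fold change of -1.90 (adjusted p = 0.00012), and EME1, a DNA repair nuclease subunit that faces MRPL27, of -1.49 (adjusted p = 2.8e-05). CYB5RL, facing MRPL37, was at -0.67 (adjusted p = 0.00352) and the proteasome gene PSMA2, facing MRPL32, at -0.47 (adjusted p = 0.00174). Pairs did not always move together. SKA3, a gene of the mitotic spindle that faces MRPL57, was at -3.10 (adjusted p = 3.4e-05), whereas MRPL57 did not pass (-0.19, adjusted p = 0.117). PIERCE1, facing MRPS2, fell (-0.50, adjusted p = 0.0492), and ZNF189, facing MRPL50, rose (0.46, adjusted p = 0.00287). MRPS2 (-0.14) and MRPL50 (-0.02) themselves did not pass. MRPL46 and MRPS11, one from each subunit, face each other with starts 320 bases apart, and neither passed (-0.22, adjusted p = 0.0886, and 0.09, adjusted p = 0.413). HIRA, a histone chaperone that faces MRPL40, was at 0.04 (adjusted p = 0.852).

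Across the series, arrays correlated at 0.993 to 0.996 within a group and 0.976 to 0.979 between groups, so no array stood apart by this measure. Correlation over all genes does not show a shift confined to the members. Their mean was -0.24 log2 units from the vehicle mean on PD0332991 replicate 1 and -0.12 on replicate 2. The T-cell identity of the line was checked on 8 marker genes, of which CD3D was bright on every array (8136, 8290 and 7770 with PD0332991, against 7487, 7534 and 7946 with vehicle). The dimmest of the 8 were CD7, at 237 to 310, and CD5, at 501 to 596. Of these markers 5 rose and 0 fell, where 15.6% of all genes rose and 13.6% fell. Of the markers of other lineages, CD14 stayed at 1.00 to 8.59, LYZ at 7.49 to 20.3, the B-cell marker MS4A1 at 35.6 to 55.4, ITGAM at 40.4 to 58.3, CD79B at 33.7 to 48.5, CSF1R at 64.3 to 84.1 and HBB at 143 to 196. MPO, at 78.9 to 106, fell (-0.26, adjusted p = 0.0229). CD79A, a B-cell marker, had 486, 641 and 501 with PD0332991 and 250, 270 and 305 with vehicle, and rose (0.94, adjusted p = 0.00284). The part of these markers in the members' values was not tested. In bulk RNA, fewer cells of a type and less RNA per cell cannot be told apart. Array intensities give a gene's RNA only relative to the other RNAs, and how they were scaled is not given.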

How the data were processed

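Total RNA of 6 KOPTK1 cultures, 3 with PD0332991 and 3 with vehicle, was biotin-labelled for Affymetrix arrays, per the labels' protocols. As deposited, each probe set has a linear intensity (0.56 to 16361.54) and was used without further scaling; the authors' summarisation, background and scaling methods are not given in the sources used here. There are no detection calls, 25.5% of values lay below 16, and 9052 values are exactly 1, as a floor would give.

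Values were taken as log2(intensity + 16), whose pseudocount shrinks the fold changes of dim genes. The 62 control probe sets did not enter. Probe sets with 1 symbol in the platform annotation (41091) were grouped by gene ID, updated through NCBI RefSeq, and the brightest by mean log2 value stood for its gene, which for all 75 members was also the brightest by mean intensity. Groups were compared over all 19777 genes with limma 3.58.1 under R 4.3.3 (two-sided moderated test from lmFit and eBayes, 4 residual degrees of freedom, Benjamini-Hochberg adjustment, threshold 0.05), tested on simulated data. Every adjusted p is from limma. Confidence intervals are unadjusted. Precision is limited by the 3 arrays per group.

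Members and lists were chosen with earlier results of these data known. Named are the 12 largest decreases and up to 10 largest increases among members that passed with groups apart, the MRPS18 genes, MRPL12, MRPS12 and MRPS30, and in each list up to 4 genes that passed with the largest changes; other genes were named after their values were seen. The alternatives tried were other centrings and quantile normalization, pseudocounts, variance options, array weights, bright genes alone, other choices of probe set, a replicate block and each array left out. Tables and figures used Python 3.11.15, pandas 2.3.3 and matplotlib 3.10.9.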

Additional observations from a re-analysis of the deposited data

How the results depend on the processing

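The median of the members stayed below 0 under every alternative run, and MRPL40 was called higher in all 18. The count of members that fell was 28 and lay between 19 and 41 under the other scalings, pseudocounts, variance options, array weights, the mean of probe sets and the test among bright genes alone. The share of all tested genes that fell moved too. It was 29.3% among bright genes (41 members), 15.1% with a variance trend (39) and 12.6% with median centring (19). The count was 16 with a replicate block (11.5% of all genes), although same-numbered arrays did not deviate together (correlations 0.007, 0.075 and 0.084), and 15 to 23 with an array left out, where fewer samples enter (10.5% to 12.7% of all genes). With shared or cross-hybridising probe sets left out, 44 members could be tested, of which 14 fell and 3 rose. Of all genes tested in that fit about 12% fell, and more rose than fell. Of the 28 members that fell in the main fit, 13 fell here too, and some of the others had no probe set left to test. The medians were -0.09 for all members, -0.09 for the large and -0.11 for the small subunit, the reverse of the main order. With a trend in the variance 2 members rose. With the mean of a gene's probe sets the medians were -0.13 for all members, -0.15 for the large and -0.09 for the small subunit. The large-subunit median ran from -0.23 to -0.15 with an array left out. Of the values for named genes under alternatives, 283 kept their side of the threshold, 4 passed newly and 14 no longer passed, 11 of them MRPS18A (adjusted p up to 0.136). The cause of these moves was not tested. Arrays without detection calls set no floor for dim probe sets, and 3 arrays a group limit what small changes can pass.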
